A study of Mus musculus with 21 samples.

Results

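*Ifng* and the genes through which CD4 T cells and NK cells are directed to make IFNγ were followed in the skin and in the skin-draining lymph nodes of *Ifnk* TG mice. The genes were 9 of the 55487 in the deposited tables of each tissue, chosen by symbol. They were *Ifng* itself, the cytokine subunit genes *Il12b* and *Il27*, the receptor genes *Il12rb1*, *Il12rb2* and *Il18r1*, and the transcription factor genes *Stat4*, *Tbx21* and *Eomes*. *Ifnk* TG mice carry *Ifnk*, a type I IFN of keratinocytes, under the keratin 14 promoter, which is active in the basal epidermis. The line was made on C57Bl/6 with a PiggyBac construct and backcrossed to BALB/c. WT mice were BALB/c from The Jackson Laboratory, bred at the University of Michigan, and are not described as littermates. Skin came from mice of 12 months, as 3 WT, 2 nonlesional (NL) *Ifnk* TG and 4 lesional (L) *Ifnk* TG libraries, none treated with UVB. Inguinal lymph nodes, passed through a cell strainer, came from WT and *Ifnk* TG mice without UVB or 2 weeks after the last of 2 weeks of UVB (250 mJ/cm2 on 3 days per week, 310 nm), with 3 libraries each. The labels give no age for the node mice. They name no mouse, sex or body site for a library and put all libraries in batch 1, so NL and L skin may share mice, and p-values measure the spread between these libraries.

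IFNγ is the signature cytokine of Th1 cells and is also made by CD8 T cells and NK cells. Dendritic cells and macrophages secrete IL-12, a pair of the subunits p40 (*Il12b*) and p35 (*Il12a*), and the receptor chains encoded by *Il12rb1* and *Il12rb2* activate STAT4. T-bet, encoded by *Tbx21*, then commits the T cell to *Ifng*, and Eomes does the same work in CD8 T cells and NK cells. IL-18, bound by the receptor chain of *Il18r1*, adds to the output of cells that have already seen IL-12. IFNγ acts on nearly all cells and turns on chemokines, guanylate-binding proteins and other induced genes.

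The bases before the start of *Ifng*, *Il12b* and *Il12rb2* are shown because these genes were called between lesional and WT skin and STAT factors carry the signals of IL-12 and IFNγ. RefSeq promoter windows (GRCm38.p6) were found for 7 of the 9 genes, all but *Il12rb1* and *Il27*. Each line holds the 250 bases before the start, 5′ to 3′ on the gene's strand, and capitals mark a match to the GAS motif of STAT factors (TTCNNNGAA, which reads alike on both strands).
*Ifng*, chr10:118440796-118441045, plus strand: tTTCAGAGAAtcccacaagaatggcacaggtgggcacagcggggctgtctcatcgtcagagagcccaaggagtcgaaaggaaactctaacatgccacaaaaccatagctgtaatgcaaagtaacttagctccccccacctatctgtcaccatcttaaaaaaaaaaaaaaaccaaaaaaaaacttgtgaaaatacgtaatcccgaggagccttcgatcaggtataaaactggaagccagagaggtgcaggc
*Il12b*, chr11:44399813-44400062, plus strand: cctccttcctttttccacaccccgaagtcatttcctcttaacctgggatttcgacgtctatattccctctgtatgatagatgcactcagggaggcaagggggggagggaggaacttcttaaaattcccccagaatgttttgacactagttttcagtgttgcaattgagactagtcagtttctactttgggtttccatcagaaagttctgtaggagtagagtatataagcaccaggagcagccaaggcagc
*Il12rb2*, chr6:67376189-67376438, minus strand: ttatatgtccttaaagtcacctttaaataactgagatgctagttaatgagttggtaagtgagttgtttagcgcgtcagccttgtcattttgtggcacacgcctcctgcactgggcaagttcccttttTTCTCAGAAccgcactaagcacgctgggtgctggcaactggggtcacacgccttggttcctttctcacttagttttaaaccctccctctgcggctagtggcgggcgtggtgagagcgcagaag
The *Ifng* window held its match 249 to 241 bases before the start and the *Il12rb2* window 123 to 115 bases before it. The GAS letters occur in 7.02% of 32851 promoter windows of this length. The *Il12b* window held none of the motifs searched on both strands, which were GAS, the T-box (TCACACC, in 3.33% of windows), the ISRE (2.98%), AP-1 (TGANTCA, 6.75%) and C/EBP (TTGCNNAA, 9.56%). Of the other genes, *Eomes* and one start of *Stat4* had an ISRE match and one start of *Il18r1* had 2 GAS matches. No T-box match was found in these windows. A match is only a run of letters, and the libraries do not measure binding.

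Values below are expected counts per gene, or CPM, counts per 1000000 counts of the normalized library. Library totals ran from 40499078 to 56511276 in skin and from 27599809 to 36428435 in nodes. *Ifnk* had 0 counts in every WT skin library and in all 12 node libraries, 6 and 0 in NL skin and 5 to 14 in L skin. The L mean was 2.63 times a WT floor of 3 counts per library, and the lowest L library was 1.48 times that floor. EdgeR called the fitted increase of *Ifnk* in L over WT skin (adjusted p = 0.0191), which is not a test against the floor. Whether these counts come from the transgene was not tested. Keratinocyte markers summed to at least 7803 CPM in every skin library and to at most 2.509 CPM in nodes, and T cell markers to at least 2534 CPM in nodes. Hair shaft genes summed to 1573 to 5996 CPM in L, 0.1484 to 0.479 CPM in WT and 0.3058 to 1.423 CPM in NL skin, and *Krt34* and *Krtap19-3* had 0 counts in WT. Skeletal muscle genes ran the other way, with 19.07 to 5747 CPM in L, 19940 to 28800 CPM in WT and 21890 to 24650 CPM in NL skin. *Xist* had 13 counts in NL replicate 3, 6 in L replicate 6 and 3297 to 9353 in the other skin libraries. These values move with the lesional label or single libraries in every skin comparison below, and their part in the results was not tested.

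In skin, 4 of the 8 tested genes differed between L and WT: *Ifng*, *Il12b* and *Il12rb1* rose and *Il12rb2* fell. Lesional skin differed widely from WT skin, with 43.1% of all 19101 tested genes called at an adjusted p under 0.05 by edgeR's quasi-likelihood F-test, 23.0% higher and 20.2% lower. The share called among these genes is thus to be read against that background. *Il27*, with 2 to 12 counts per skin library, was too low to be tested.

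*Ifng* (ENSMUSG00000055170, chr10:118441046-118445892, GRCm38) had 117, 34, 203 and 5 counts in L replicates 4 to 7. It had 5, 0 and 4 counts in WT replicates 8 to 10, and 12 and 0 in NL replicates 2 and 3. As levels these were 2.13, 0.839, 4.47 and 0.0901 CPM in L, 0.114, 0 and 0.0989 CPM in WT, and 0.229 and 0 CPM in NL. In 3 L libraries *Ifng* was far above all WT and NL libraries, while L replicate 7 lay inside the WT range. The means were 1.88 ± 1.92 CPM (SD, n = 4) in L, 0.0710 ± 0.0619 CPM (SD, n = 3) in WT and 0.115 ± 0.162 CPM (SD, n = 2) in NL skin. *Ifng* was thus 25.5-fold higher in L than in WT skin (log2 fold change 4.67, SE 1.51, 95% confidence interval 0.98 to 8.36, adjusted p = 0.0357, edgeR). The SD of the L libraries is as large as their mean. Against NL skin the log2 fold change was 3.93 (SE 1.67, adjusted p = 0.119), which did not pass. NL and WT skin gave 0.75 (adjusted p = 0.932), with ranges that overlap. The call against WT was lost without WT replicate 8, 9 or 10 (adjusted p = 0.0838, 0.102 and 0.0915) or L replicate 4 or 6 (0.0540 and 0.0725), with no filter on low counts (0.0707) and with *Xist* as a covariate (0.0697). Of 7 alternative settings that retain all libraries 5 kept the call, and the adjusted p over the 7 ranged from 0.00115 to 0.0707.

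**Figure D1:**
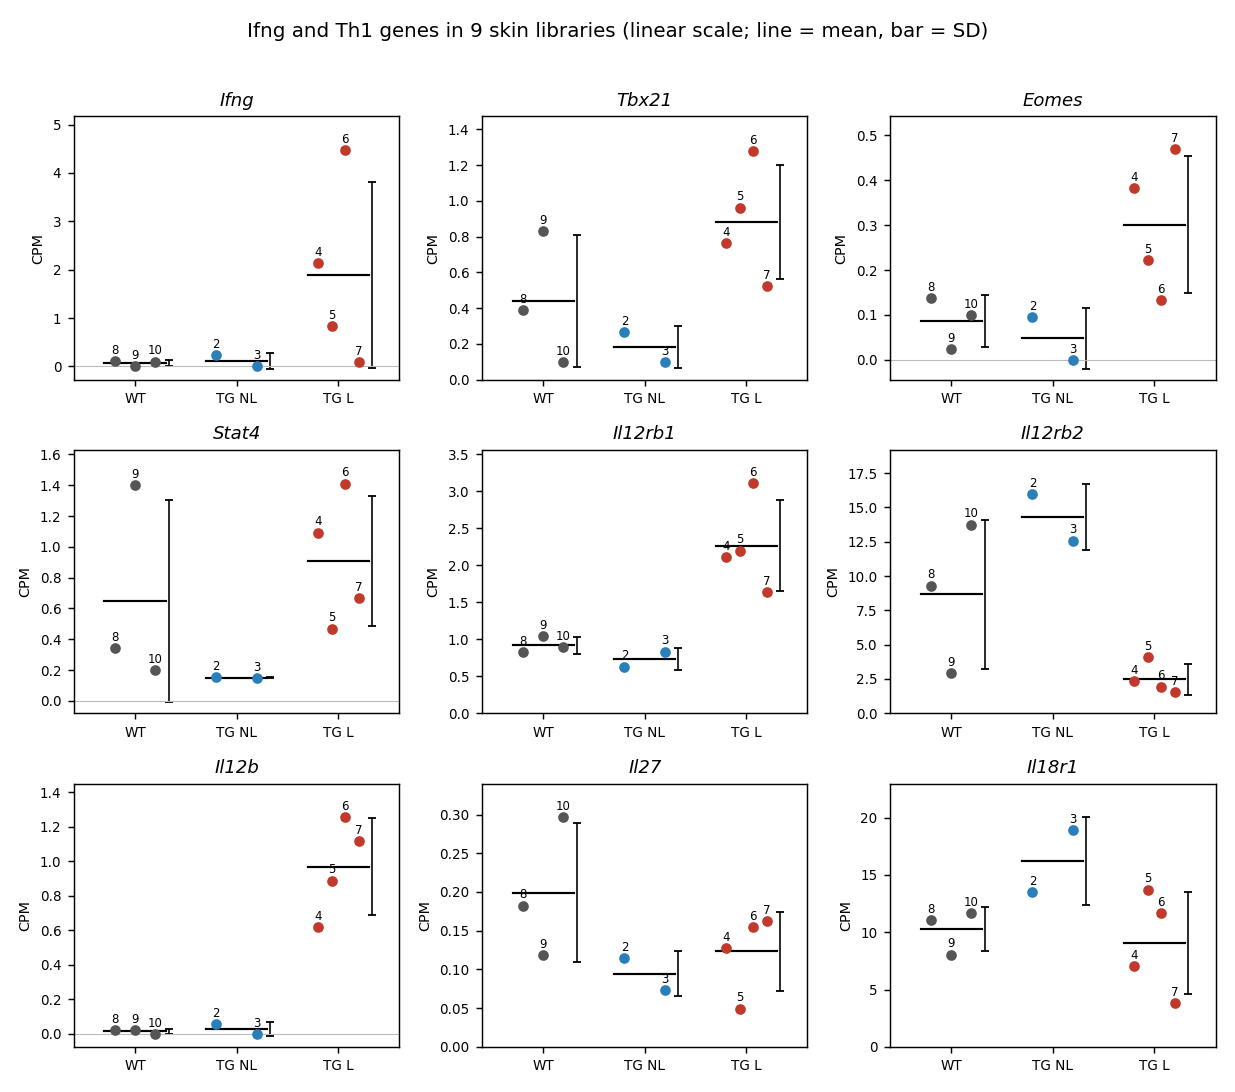
CPM of each gene in each of the 9 skin libraries, 1 panel per gene, with groups (WT, NL, L) along the horizontal axis, CPM on the vertical axis and each library as a point. Lines mark group means and bars the SD. In L skin, *Il12b* and *Il12rb1* lie above WT and NL in 4 of 4 libraries and *Ifng* in 3 of 4, and *Il12rb2* is lowest in L skin apart from an overlap with WT replicate 9.

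The IL-12 subunits moved apart. *Il12b* (ENSMUSG00000004296, chr11:44400063-44414033), which encodes the p40 chain that IL-12 shares with IL-23, had 34, 36, 57 and 62 counts in L replicates 4 to 7. It had 1, 1 and 0 counts in WT and 3 and 0 in NL skin. All L libraries, replicate 7 included, lay above all others, at 0.619 to 1.26 CPM. So did 26.0% of tested genes against WT and 24.7% against NL. The pooled *Il12b* counts, 189 against 2, give a ratio of 60.8 to WT with a 95% counting interval of 16.6 to 506.0. Against NL skin, with 3 counts, it was 29.9 (10.1 to 146.0). These intervals cover counting error alone. *Il12b* passed against WT (log2 fold change 5.72, SE 0.83, adjusted p = 0.000968, edgeR) and against NL (4.84, SE 0.89, adjusted p = 0.00649), and in both it was called in every setting in which it could be tested and without each library in turn. With at least 10 counts required in every library it could not be tested. With so few counts outside L skin, these fitted changes depend on the prior count. *Il12b* passed the filter on low counts only through its L libraries, where it is high, so the filter and the result are not independent. The same holds for *Ifng*, *Ifnk* and, below, *Eomes* and *Il17a*.

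*Il12a*, the p35 partner that makes p40 into IL-12, was lower in every L library than elsewhere. The same held for 23.4% of tested genes against WT and 24.7% against NL. *Il12a* had 0 to 8 counts in L, 20 to 41 in WT and 33 to 47 in NL skin, means of 0.0785, 0.769 and 0.892 CPM. It passed the filter on low counts only through its WT and NL libraries, where it is high. The filter and the result are thus not independent for *Il12a* either. The fall was 9.33-fold against WT (log2 fold change -3.22, SE 0.73, adjusted p = 0.00784) and 10.8-fold against NL (adjusted p = 0.0143, edgeR). *Il23a*, whose p19 chain makes p40 into IL-23 and which was singled out after its values were seen, had a log2 fold change of 1.13 against WT that did not pass (adjusted p = 0.222). *Il27* (ENSMUSG00000044701, chr7:126589010-126594941), the p28 chain of IL-27, stayed at 0.0493 to 0.162 CPM in L, 0.119 to 0.297 CPM in WT and 0.0736 to 0.115 CPM in NL skin. The L range of *Il27* overlaps both others. Both NL libraries lay just below all WT libraries, as for 16.3% of tested genes. The exons of *Il27* share bases with *Apobr* on the opposite strand, and the counting strand is not given in the sources used here.

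The 2 chains of the IL-12 receptor also went opposite ways. *Il12rb1* (ENSMUSG00000000791, chr8:70808449-70821424), the chain shared with the IL-23 receptor, stood at 2.11, 2.20, 3.11 and 1.64 CPM in L replicates 4 to 7. It stood at 0.821, 1.04 and 0.890 CPM in WT and 0.631 and 0.834 CPM in NL skin. Every L library lay above every other, as did 26.0% of all tested genes against WT and 24.7% against NL. The increase was 2.46-fold over WT (log2 fold change 1.3, SE 0.29, adjusted p = 0.00739) and 3.09-fold over NL (1.63, SE 0.34, adjusted p = 0.0110, edgeR).

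*Il12rb2* (ENSMUSG00000018341, chr6:67291318-67376188, minus strand), the chain that docks STAT4, had 2.37, 4.07, 1.94 and 1.53 CPM in L skin. WT libraries held 9.31, 2.92 and 13.7 CPM and NL libraries 16.0 and 12.6 CPM. All L libraries lay below both NL libraries, as for 24.7% of tested genes, but L replicate 5 lay above WT replicate 9. The fall was 3.50-fold against WT (log2 fold change -1.81, SE 0.50, adjusted p = 0.0200) and 5.78-fold against NL (-2.53, SE 0.55, adjusted p = 0.0128, edgeR). The call against WT was lost without WT replicate 8 or 10 (adjusted p = 0.0542 and 0.0815). Against NL, the calls of *Il12rb1* and *Il12rb2* were lost without NL replicate 2 (0.102 and 0.0810) or 3 (0.0626 and 0.0621), when NL was 1 library assumed to vary like the other groups. In L against NL skin, 3 of the 8 tested genes were called, beside 25.0% of all genes. *Il12rb2* exons share bases with *Serbp1* on the opposite strand, which had 13871 to 32741 counts per skin library, so its reads are uncertain if counting ignored strand.

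**Figure D2:**
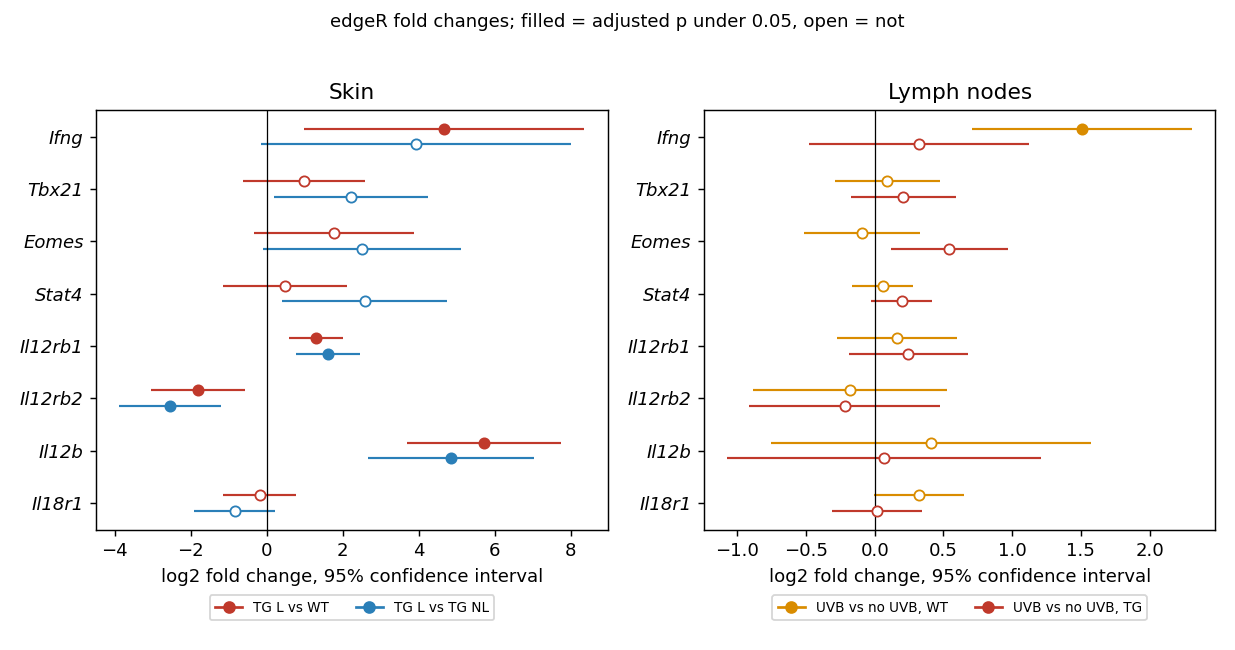
Log2 fold change (horizontal axis) of each tested gene (vertical axis) in L against WT and NL skin and in the UVB comparisons of the nodes, with 95% confidence intervals from edgeR as bars and filled points for changes called. In skin *Il12b* sits far to the right of 0 and *Il12rb2* to the left in both lesional comparisons, and the interval of *Ifng* against WT runs from 0.98 to 8.36.

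The transcription factors did not pass in any skin comparison. *Tbx21* (ENSMUSG00000001444, chr11:97098071-97115331, minus strand) stood at 0.765, 0.962, 1.28 and 0.523 CPM in L, 0.388, 0.831 and 0.0989 CPM in WT, and 0.268 and 0.0981 CPM in NL skin. *Stat4* (ENSMUSG00000062939, chr1:51987148-52107189) stood at 1.09, 0.469, 1.41 and 0.667 CPM in L, 0.342, 1.40 and 0.198 CPM in WT, and 0.153 and 0.147 CPM in NL skin. *Eomes* (ENSMUSG00000032446, chr9:118478212-118486132) had 6 to 26 counts per L library, 1 to 6 per WT library and 5 and 0 in NL, at most 0.468 CPM. For each of the 3 genes every L library lay above both NL libraries, while L and WT overlapped. Of all genes tested 24.7% lay above NL in this way, NL being 2 libraries. WT replicate 9 held the highest WT value of *Tbx21* and *Stat4*.

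Against WT the log2 fold changes were 1.00 for *Tbx21* (SE 0.66, adjusted p = 0.250), 1.78 for *Eomes* (SE 0.86, adjusted p = 0.125) and 0.49 for *Stat4* (SE 0.66, adjusted p = 0.581, edgeR). Against NL they were 2.22 (SE 0.83, adjusted p = 0.0808), 2.51 (SE 1.06, adjusted p = 0.116) and 2.58 (SE 0.89, adjusted p = 0.0640). DESeq2 called *Stat4* and *Tbx21* against NL (adjusted p = 0.0120 and 0.0237) and *Ifng* (0.0207). With edgeR, *Stat4* passed against NL in the fit of those groups alone (0.0371), without WT replicate 9 (0.0246) and without WT replicate 10 (0.0492), and *Tbx21* without WT replicate 10 (0.0437). *Ifng* passed against NL without L replicate 7 (0.0488). *Stat4* was also below all WT libraries in both NL libraries, as were 16.3% of tested genes, with a log2 fold change of -2.09 (SE 0.91, adjusted p = 0.650).

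*Il18r1* (ENSMUSG00000026070, chr1:40465552-40500854), the ligand-binding chain of the IL-18 receptor, was at 7.03, 13.7, 11.7 and 3.84 CPM in L replicates 4 to 7. WT skin held 11.0, 8.05 and 11.7 CPM and NL skin 13.5 and 18.9 CPM. The L range spans the WT range, and the log2 fold change was -0.18 (SE 0.39, adjusted p = 0.738) against WT and -0.84 (SE 0.43, adjusted p = 0.188) against NL. Both NL libraries lay above all WT libraries (0.66, adjusted p = 0.754), as did 18.6% of tested genes. *Il18rap*, the signalling chain of the same receptor, did rise in L skin, to 2.7 to 8.16 CPM from 0.274 to 0.878 CPM in WT, 7.29-fold (log2 fold change 2.87, SE 0.58, adjusted p = 0.00476, edgeR). Between NL and WT skin edgeR called none of these genes and none of all 19101 genes (0%). At an unadjusted p under 0.05 it gave 1465 genes (7.67%), and DESeq2 called 80.

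Within L skin, replicate 6 held the highest value of 5 of the 9 genes and replicate 7 the lowest of 5. Per kilobase of exon, *Il18r1* (1.88 CPM per kb) led in L skin, followed by *Ifng* (1.45), *Il12rb2* (0.653), *Il12rb1* (0.551), *Il12b* (0.493), *Tbx21* (0.354), *Stat4* (0.235), *Il27* (0.121) and *Eomes* (0.0725). Neighbours in this order overlapped in every case. In WT skin *Il12rb2* (2.28 CPM per kb) and *Il18r1* (2.13) overlapped at the top, and *Il12rb1* followed at 0.224. The genes whose log2 CPM followed *Ifng* most closely over the 9 skin libraries were *Zfp511* (Pearson r = 0.972), *Ceacam12* (0.968), *Spib* (0.963), *H2-Q4* (0.962) and *Casp1* (0.961). These libraries share the contrast of lesion and no lesion, so r describes that order alone.

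Among the 13 tested genes of the IL-12 family, IL-18 and their receptors, 5 rose in L against WT skin (*Il12b*, *Il12rb1*, *Il18bp*, *Il18rap* and *Il27ra*) and 3 fell (*Il12a*, *Il12rb2* and *Il6st*). The median log2 fold change of the list was 1.13, beside 0.06 over all genes. *Il18bp* encodes a secreted protein that binds IL-18 and blocks it, and *Il27ra* and *Il6st* encode the chains of the IL-27 receptor. Against NL, 4 rose and 2 fell, beside 13.2% of all genes higher and 11.8% lower. The 3 that fell against WT became 1 without WT replicate 10, and against NL 1 rose and 0 fell without either NL library.

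Of 19 tested genes that IFNγ induces, 14 rose in L against WT skin and 0 fell, with a median log2 fold change of 1.83. The chemokine gene *Cxcl9* stood at 19.9 to 170 CPM in L and 0.784 to 2.24 CPM in WT skin, 62.0-fold higher (log2 fold change 5.95, SE 0.95, adjusted p = 0.00198, edgeR). *Cxcl11*, a ligand of the same receptor, rose from 0.108 ± 0.115 CPM (SD, n = 3) to 9.00 ± 10.0 CPM (SD, n = 4), with an adjusted p of 0.0100. *Socs1*, the feedback inhibitor of JAK kinases, rose 3.55-fold (adjusted p = 0.00646). *Igtp*, a GTPase of defence inside the cell, rose 7.30-fold (adjusted p = 0.0107). Some of these genes also answer to type I IFN, which the transgene encodes, and these libraries cannot tell the inducers apart. The count was 5 without WT replicate 10, 7 without WT replicate 9 and 9 with no filter on low counts. Against NL 6 of 19 rose and 0 fell (*Cxcl9*, *Cxcl10*, *Cxcl11*, *Igtp*, *Iigp1* and *Socs1*), beside 13.2% of all genes higher and 11.8% lower. In NL against WT 0 of 19 were called, also 0 at an unadjusted p under 0.05. The count against NL was 0 without either NL library, 3 without WT replicate 8 or 9, 10 without L replicate 5, 14 without L replicate 7, 2 with no filter or with those groups alone, and 14 with DESeq2.

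**Figure D3:**
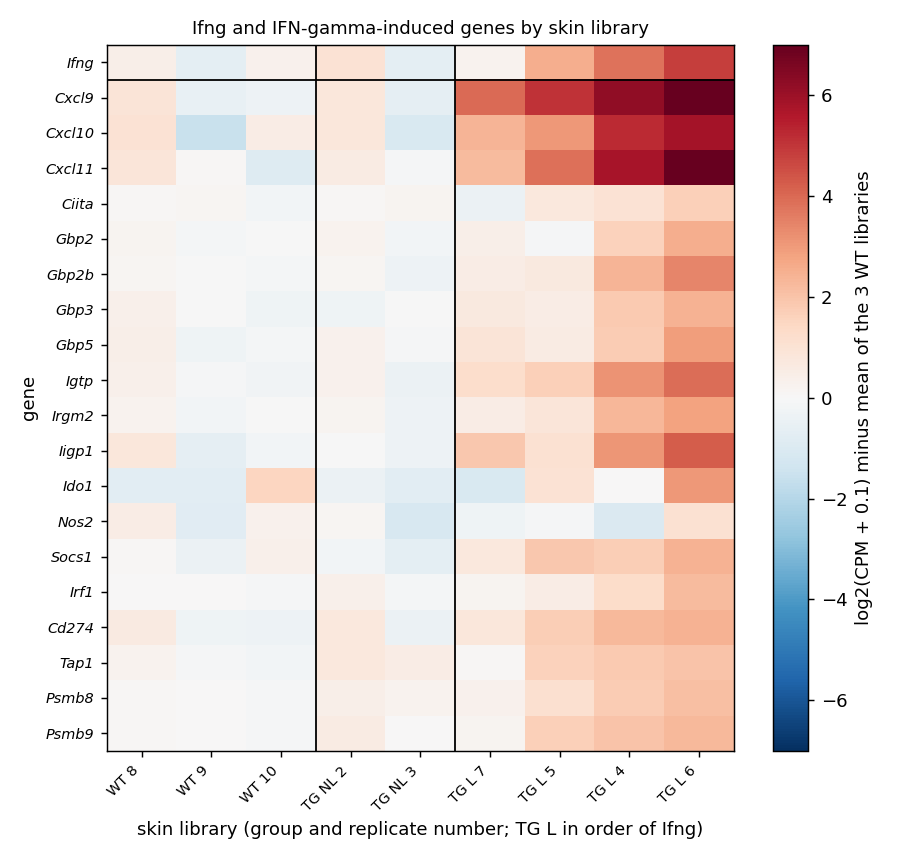
Heat map of *Ifng* (top) and the 19 IFNγ-induced genes (vertical axis) in the 9 skin libraries (horizontal axis, WT, NL, then L in order of *Ifng*), coloured by log2 of CPM plus 0.1 minus the mean of the 3 WT libraries. L replicate 6 is the highest L library for 19 of the 19 induced genes, and L replicate 7 the lowest for 14.

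The spread of the induced genes among L libraries was wide. Their summed level was 1631, 834.7, 2643 and 550 CPM in L replicates 4 to 7, against 333 to 428.9 CPM in WT and 368.1 to 469.1 CPM in NL skin. L replicate 6, the library with most *Ifng*, was the highest L library for 19 of the 19 genes, and L replicate 7, with least *Ifng*, the lowest for 14. *Gbp2*, *Gbp3*, *Gbp5*, *Iigp1* and *Nos2* were the exceptions. L replicate 7 had the lowest value of all 10 T cell markers and of *Cd4*, *Cd8a* and *Cd8b1* within L skin as well. L replicate 6 also had 6 *Xist* counts, against 6700 to 8109 in the other L libraries. This order rests on 4 libraries, the genes of a list are not replicates, and the share of all genes with this order was not counted.

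Of the 8 genes of the IFNγ receptor and its signalling, 2 rose in L against WT skin, among them *Socs1*, and 2 fell. The receptor chain *Ifngr1* fell 1.81-fold (log2 fold change -0.86, SE 0.19, adjusted p = 0.00778), from 153 ± 33.7 CPM (SD, n = 3) to 84.4 ± 16.7 CPM (SD, n = 4). The kinase gene *Jak1* fell 1.65-fold (adjusted p = 0.00665, edgeR). Both were below the WT range in every L library, as were 23.4% of tested genes. The share called in this list is near that of all genes, 43.1%. Its median was -0.06, beside 0.06 over all genes.

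Among 14 tested cofactor and effector genes of Th1 cells, 7 rose and 1 fell, with a median log2 fold change of 1.5. The homing receptor *Cxcr6* (3.69-fold, adjusted p = 0.00166, edgeR) and the chemokine *Ccl5* (10.2-fold, adjusted p = 0.00174, edgeR) rose. Their L libraries lay above all WT libraries, as for 26.0% of tested genes. *Zeb2*, a transcription factor that works with T-bet and is also made by macrophages, fell 1.92-fold (adjusted p = 0.00622, edgeR). Against NL 4 of the 14 rose and 0 fell, where 13.2% of all genes rose and 11.8% fell. The 7 that rose against WT became 4 without any one WT library or with no filter, and the 4 against NL became 1 and 0 without NL replicate 2 and 3.

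Genes of the other T helper programmes were counted in the same comparisons. Of 9 Th2 genes, *Il13* (3.83-fold, adjusted p = 0.0240) and *Ccr8* (2.81-fold, adjusted p = 0.0341) rose in L against WT skin. Of 9 Th17 genes, *Il17a* and *Il17f* rose (adjusted p = 0.0169 and 0.0223, edgeR), *Il17a* from 0 counts in all WT and NL libraries to 6 to 49 in L. The median log2 fold change was 0.20 over the Th2 and 0.05 over the Th17 genes, beside 0.06 over all genes, and 23.0% of all genes rose. Of 7 regulatory T cell genes, with a median of 1.45, 5 rose, among them *Foxp3*, 7.12-fold (log2 fold change 2.83, SE 0.66, adjusted p = 0.00870, edgeR), and *Il2ra*, 2.91-fold (adjusted p = 0.00628). Against NL, 0 Th2 genes rose and 2 fell, 2 Th17 genes rose, and 2 regulatory T cell genes rose and 1 fell. Of all genes 13.2% rose and 11.8% fell in that comparison. These counts are small and turn on single libraries: against WT, the genes that rose ranged without a library from 0 to 2 for Th2 (0 without WT replicate 10 or L replicate 6), from 0 to 2 for Th17 (0 without WT replicate 8 or L replicate 7) and from 2 to 5 for regulatory T cell genes (2 without WT replicate 9 or 10 or L replicate 4), and against NL none of the 3 lists kept a gene lower or higher without NL replicate 3. The lists were not compared with one another by a test.

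Cell markers were read in the same libraries. In bulk tissue more cells of a type and more RNA per cell cannot be told apart. Of 10 T cell markers 6 rose in L against WT skin and 0 fell, with summed levels of 38.65 to 83.89 CPM in L, 35.49 to 51.16 CPM in WT and 46.39 to 62.96 CPM in NL skin. *Cd4*, *Cd8a* and *Cd8b1* all rose, and their sum was 7.027 to 31.9 CPM in L, 1.802 to 3.656 CPM in WT and 1.03 to 3.421 CPM in NL skin. Of 8 tested NK cell markers *Gzma* and *Klrk1* rose and *Prf1* fell (sums of 12.76 to 29.1 CPM in L and 13.51 to 18.4 CPM in WT), a share near that of all genes, of which 43.1% were called. Of 8 dendritic cell markers 3 rose and 2 fell (60.07 to 76.52 CPM in L and 38.41 to 70.85 CPM in WT). Of 3 γδ T cell markers 1 rose and 2 fell. The summed levels of neutrophil and adipocyte markers did not overlap between L and WT skin. Of 5 tested neutrophil markers 3 rose and 0 fell (63.3 to 571.6 CPM in L and 10.24 to 19.97 CPM in WT). Of 5 adipocyte markers *Adipoq* and *Fabp4* fell and 0 rose (621.2 to 3044 CPM in L and 4207 to 7823 CPM in WT), a count of 1 to 4 without single libraries. The part of these cell types in the results was not tested. Without L replicate 7, 4 NK cell and 5 dendritic cell markers rose, while the T cell count changed by less than 1.5 times without any library.

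Set against T cell RNA, *Ifng* had 69.0, 25.4, 148 and 5.31 counts per 1000 counts of the CD3 genes in L replicates 4 to 7. WT skin had 3.41, 0 and 3.30 and NL skin 8.36 and 0. In 3 L libraries the ratio was above all other skin libraries, and L replicate 7 lay below NL replicate 2. The CD3 counts themselves ran from 941 to 1696 in L and from 922 to 1467 in WT skin. The summed level of *Cd4*, *Cd8a* and *Cd8b1* rose from 1.802 to 3.656 CPM in WT to 7.027 to 31.9 CPM in L skin. A ratio of *Ifng* to these coreceptors was not taken. The part that T cell number has in the *Ifng* result was not tested beyond the ratio to CD3 counts, which also mixes in *Ifng* from NK cells.

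**Figure D4:**
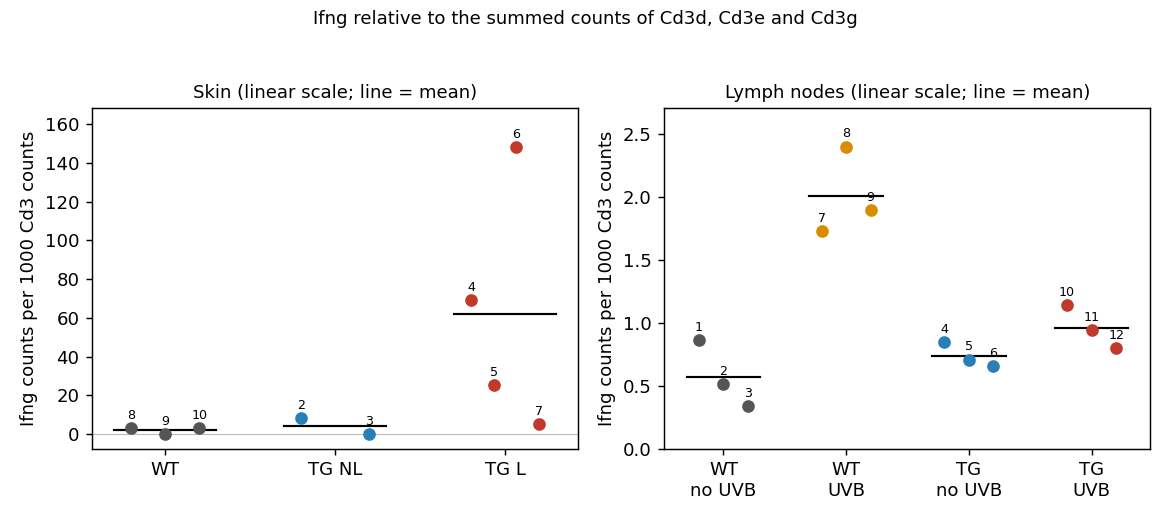
*Ifng* counts per 1000 counts of the CD3 genes in each library, with groups along the horizontal axis and skin and nodes in separate panels, each point 1 library and each line a group mean. L skin runs from 5.31 to 148, and UVB-treated WT nodes, at 1.73 to 2.40, lie above the WT nodes without UVB, at 0.340 to 0.867.

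In the lymph nodes *Ifng* rose after UVB in WT mice, and no other of the 8 tested genes was called in a comparison of the 4 node groups. *Ifng* had 28, 17 and 11 counts in WT replicates 1 to 3 without UVB and 44, 55 and 52 in WT replicates 7 to 9 after UVB. In *Ifnk* TG nodes it had 27, 25 and 21 counts in replicates 4 to 6 without UVB and 31, 24 and 27 in replicates 10 to 12 after it. As levels these were 0.845, 0.533 and 0.338 CPM, then 1.32, 2.00 and 1.59 CPM in WT, and 0.730, 0.709 and 0.605 CPM, then 0.901, 0.835 and 0.826 CPM in *Ifnk* TG nodes. After UVB each genotype lay above its own untreated nodes without overlap, and the WT nodes lay above the *Ifnk* TG nodes.

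In WT nodes the increase was 2.84-fold (log2 fold change 1.51, SE 0.35, 95% confidence interval 0.71 to 2.31, adjusted p = 0.0343, edgeR), where 4.98% of all 16173 tested genes were called, 2.92% higher and 2.06% lower, and 19.8% lay higher in every UVB-treated library. In *Ifnk* TG nodes the log2 fold change was 0.32 (SE 0.35, 95% confidence interval -0.48 to 1.13, adjusted p = 0.817), and 0% of genes were called. There 1507 genes (9.32%) had an unadjusted p under 0.05 and DESeq2 called 137. The difference of both UVB responses was -1.18 on the log2 scale (SE 0.49, 95% confidence interval -2.32 to -0.05), but it did not pass over all genes (adjusted p = 0.848). EdgeR called 0% of genes in this interaction, with 881 genes (5.45%) at an unadjusted p under 0.05 and 8 called by DESeq2. *Ifnk* TG against WT gave -0.93 after UVB (SE 0.34, adjusted p = 0.673), with all *Ifnk* TG libraries below all WT libraries, as for 4.32% of genes, and 0.25 without UVB (adjusted p = 1). Between the genotypes 0% of genes were called without UVB, with 3.39% at an unadjusted p under 0.05 and 2 genes with DESeq2, and 0% after UVB, with 6.99% at an unadjusted p under 0.05 and 19 genes with DESeq2. Averaged over both genotypes, *Ifng* rose by 0.92 on the log2 scale after UVB (SE 0.25, adjusted p = 0.0384), beside 8.61% of all genes called (4.81% higher and 3.80% lower). Averaged over UVB, the genotypes gave -0.34 (adjusted p = 1), beside 1 gene called (0.00618%) and 4.66% at an unadjusted p under 0.05.

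The UVB call in WT nodes turned on single libraries. It was lost without WT replicate 2 or 3 (adjusted p = 0.0898 and 0.143), *Ifnk* TG replicate 4 or 6 (0.0505 and 0.0541), which share only the estimate of spread, or WT replicate 8 or 9 (0.158 and 0.0847), and with *Xist* as a covariate (0.0567). Of 8 alternative settings that retain all libraries 7 kept the call, and the adjusted p over the 8 ranged from 0.00350 to 0.0567. In every fit that lost it the log2 fold change was at least 1.22. The number of all genes called in this comparison, 805, went to 0 without WT replicate 8, 7 without WT replicate 3, 29 without WT replicate 9 and 212 with *Xist* as a covariate. It went up to 2002 with DESeq2, 2431 with the compared groups alone and 2644 without *Ifnk* TG replicate 12. *Xist* had only 3 to 42 counts per node library, so in nodes this covariate follows low counts and cannot adjust for sex. The averaged call was kept in 3 of 12 fits that each left out a library, with adjusted p up to 0.104.

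**Figure D5:**
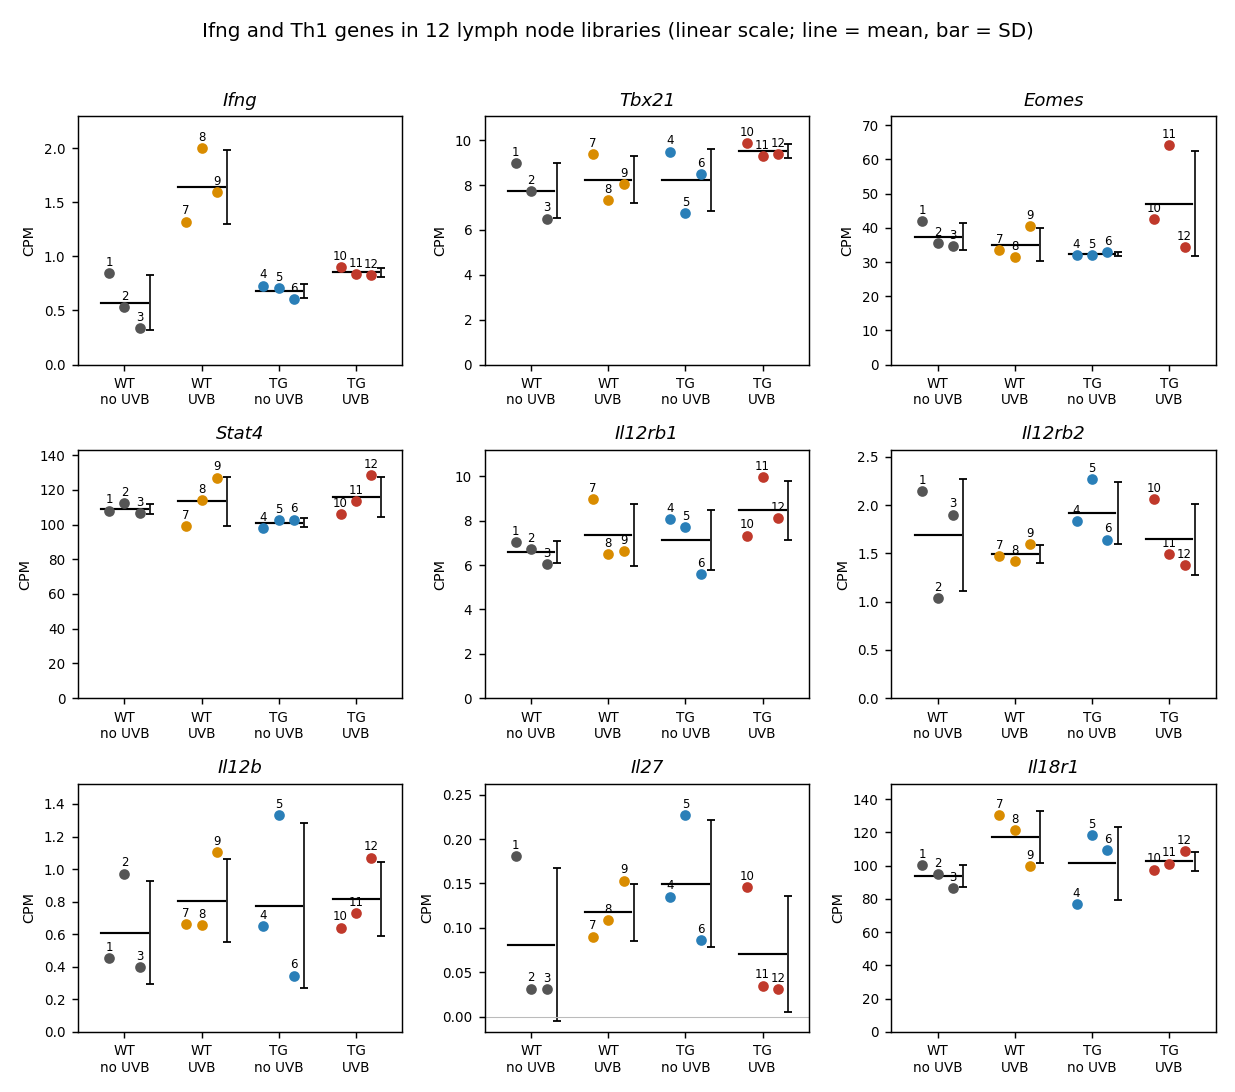
CPM of each gene in each of the 12 node libraries, 1 panel per gene, with genotype and UVB groups along the horizontal axis, CPM on the vertical axis and each library as a point, and lines and bars for means and SD. *Ifng* in UVB-treated WT nodes (1.32 to 2.00 CPM) lies above all other groups, and *Eomes* in UVB-treated *Ifnk* TG nodes runs from 34.4 to 64.3 CPM.

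The transcription factors were abundant in nodes. *Eomes* stood at 42.1, 35.5 and 34.7 CPM in WT nodes without UVB and 33.4, 31.4 and 40.5 CPM after it. *Ifnk* TG nodes held 31.9, 31.9 and 33 CPM without UVB and 42.6, 64.3 and 34.4 CPM after it. *Ifnk* TG replicate 11 held the highest of the 12 values, and in *Ifnk* TG nodes the UVB-treated libraries lay above the untreated ones. The log2 fold change there was 0.54 (SE 0.18, adjusted p = 0.403), against -0.09 in WT nodes (adjusted p = 0.790), and the difference of the responses was 0.64 (SE 0.26, adjusted p = 0.848). Without *Ifnk* TG replicate 12 the change in *Ifnk* TG nodes was 0.71 with an adjusted p of 0.0457, the only setting in which it was called. *Ifnk* TG against WT gave 0.42 after UVB (adjusted p = 0.702) and -0.21 without it (adjusted p = 1). Without UVB *Eomes* and *Stat4* lay lower in all *Ifnk* TG than in all WT nodes, as did 4.93% of tested genes.

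*Stat4* ranged from 98.1 to 128 CPM over all 12 node libraries and *Tbx21* from 6.51 to 9.89 CPM. *Stat4* was at 98.1, 102 and 103 CPM in untreated and 106, 113 and 128 CPM in UVB-treated *Ifnk* TG nodes, a log2 fold change of 0.20 (adjusted p = 0.551) without overlap. *Tbx21* did not separate the groups by UVB in WT nodes, with 8.96, 7.75 and 6.51 CPM before and 9.37, 7.34 and 8.03 CPM after. In *Ifnk* TG nodes 3 of the 8 genes, *Ifng*, *Eomes* and *Stat4*, lay higher in all UVB-treated libraries, as did 6.23% of all tested genes.

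The receptor genes changed little. *Il12rb1* ranged from 5.59 to 9.95 CPM and *Il12rb2* from 1.03 to 2.27 CPM over the 12 libraries, and for both genes the groups overlapped in each comparison of genotype or UVB. *Il18r1* was at 100.2, 94.7 and 86.7 CPM in WT nodes without UVB and 130, 122 and 99.6 CPM after UVB, a log2 fold change of 0.32 (adjusted p = 0.172). *Il12b* had 12 to 47 counts and *Il27* 1 to 8 counts per node library, with overlapping groups for *Il12b*, and *Il27* was too low to be tested. None of the 12 tested genes of the IL-12 family list was called after UVB in either genotype by edgeR, with 2 at an unadjusted p under 0.05 in WT nodes and 0 in *Ifnk* TG nodes.

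Per kilobase of exon the order in untreated WT nodes was *Stat4* (28.1 CPM per kb), *Il18r1* (19.5), *Eomes* (9.01), *Tbx21* (3.11) and *Il12rb1* (1.61), each apart from the next. *Il12rb2* (0.446), *Ifng* (0.442) and *Il12b* (0.309) overlapped, and *Il27* (0.0794) was last. In UVB-treated WT nodes *Ifng* stood at 1.27 CPM per kb, apart from *Il12b*. Over the 12 node libraries *Plk3* (Pearson r = 0.980), *Ice1* (0.95), *Chmp4c* (0.944), *Gm45902* (0.944) and *Zfp638* (0.944) followed the log2 CPM of *Ifng* most closely, and none of them was among the 5 closest in skin.

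Of 17 tested IFNγ-induced genes 5 rose in WT nodes after UVB and 0 fell, beside 2.92% of all genes higher and 2.06% lower. Their median log2 fold change was 0.27, beside 0.00 over all genes. *Gbp3* (0.56, adjusted p = 0.0278) and *Gbp2b* (0.63, adjusted p = 0.0320) encode guanylate-binding proteins, *Irf1* (0.53, adjusted p = 0.0303) a transcription factor and *Irgm2* (0.75, adjusted p = 0.0318) a GTPase, and *Socs1* was the fifth. In *Ifnk* TG nodes 0 of 17 passed with edgeR, 12 had an unadjusted p under 0.05 and DESeq2 called 7, with a median of 0.45. *Gbp2b* had the lowest p there (log2 fold change 0.91, adjusted p = 0.154). Averaged over genotype 9 rose and *Nos2* fell, beside 4.81% of all genes higher and 3.80% lower. The WT count went to 0 without WT replicate 1, 3, 8 or 9, to 2 without *Ifnk* TG replicate 6 or with *Xist* as a covariate and to 8 with DESeq2. Their summed level was 1897 to 2332 CPM in untreated and 2391 to 2586 CPM in UVB-treated WT nodes, and 1598 to 2096 CPM and 2354 to 2666 CPM in *Ifnk* TG nodes, so UVB-treated nodes lay above untreated nodes in both genotypes.

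Of 15 Th1 cofactor and effector genes, *Bhlhe40*, a cofactor of cytokine production, rose in WT nodes after UVB (log2 fold change 0.61, adjusted p = 0.0303) and *Zeb2* fell (-0.60, adjusted p = 0.0234). Of 7 Th2 genes *Il1rl1*, the IL-33 receptor (1.00, adjusted p = 0.0261), and *Ccr4* (1.12, adjusted p = 0.0304) rose, of 7 Th17 genes *Ahr* rose (0.77, adjusted p = 0.0343), and of 7 regulatory T cell genes 0 were called. The shares over all genes were 2.92% higher and 2.06% lower. Without WT replicate 8 or 9 none of these genes was called, and *Ahr* and *Bhlhe40* were each called only in some fits that left out a library. In *Ifnk* TG nodes 0 genes of these lists passed with edgeR. T cell markers did not rise with *Ifng*. Of 10, *Cd2* and *Cd5* fell in WT nodes and 0 rose, a count of 0 to 6 without single libraries and 0 without any WT library, and the summed level was 3105 to 3172 CPM without and 2534 to 2775 CPM with UVB. None of 9 NK cell markers was called (185.5 to 262.4 CPM without and 170.6 to 227.9 CPM with UVB). The summed level of 8 dendritic cell markers was 582 to 606.8 CPM without and 431.5 to 476.8 CPM with UVB in WT nodes, and 551.6 to 597.5 CPM and 469.8 to 516.6 CPM in *Ifnk* TG nodes, with no overlap in either genotype. Of these markers *Ccr7* was called lower in WT nodes, a call lost without WT replicate 3, 8 or 9. The part of these cells in the results was not tested.

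Per 1000 counts of the CD3 genes, *Ifng* had 0.867, 0.511 and 0.340 counts in untreated and 1.73, 2.40 and 1.90 in UVB-treated WT nodes. In *Ifnk* TG nodes it had 0.847, 0.709 and 0.660 counts, then 1.14, 0.945 and 0.803. The UVB-treated WT nodes thus stayed above all other nodes on this scale, while in *Ifnk* TG nodes the groups overlapped. Red cell genes moved with UVB as well, with 3 of 5 lower in WT nodes (sums of 121.2 to 260.8 CPM without and 10.8 to 39.5 CPM with UVB, a count of 0 without any WT library), and their part in the results was not tested.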

How the data were processed

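RNA of 9 skin and 12 lymph node libraries was read as paired ends. The authors trimmed reads with cutadapt 4.8, aligned them to GRCm38 with STAR 2.7.8a and deposited expected counts per gene from RSEM 1.3.3, whole numbers without normalization. The annotation release and counting strand are not given in the sources used here. Positions and exon lengths came from GENCODE M21 (55141 of 55487 identifiers matched), and 4 reporter-construct entries held 0 counts. *Ifng* shares exon bases with *Gm49751* and *Stat4* with *Gm28177*, both on the same strand, and *Eomes* with *Gm33460* on the opposite strand. *Gm49751* had 0 to 2 counts per skin library and 0 to 8 per node library, and *Gm28177* 0 to 12 and 0 to 26. How reads of shared bases were assigned was not tested.

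Counts were analysed with edgeR 4.0.16 (R 4.3.3): filterByExpr by group (at least 10 counts, 15 in total), TMM, 1 robust quasi-likelihood fit per tissue and F-tests, with Benjamini-Hochberg adjustment over all 19101 skin or 16173 node genes and a threshold of 0.05. Standard errors came from F. Every chosen gene is described, and of each list the genes with the smallest adjusted p, up to 4, with others named only where a count of 5 or fewer calls for it. Some results on these lists are not reported here. Genes and lists were chosen with earlier results of these data known. On simulated counts edgeR recovered 33% of 2-fold and 63% of 4-fold changes in skin and 52% and 84% in nodes. The simulation changed few genes, in L against WT skin and in *Ifnk* TG against WT nodes without UVB. In the real L and WT skin 43.1% of genes were called, so these shares do not give the power of that comparison. No 2 libraries agreed within sampling noise.

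The alternatives were DESeq2 1.42.0, RLE and upper-quartile normalization, no filter, at least 10 counts in every library, the compared groups alone, no robust estimation, *Xist* as a covariate and each library left out. List counts under these settings were added after the data were seen. There are no molecular identifiers, so counting intervals cover counting error only.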

Additional observations from a re-analysis of the deposited data

How the results depend on the processing

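Over all settings, 575 fold changes of the genes kept their direction and side of the threshold, 30 lost a call, 9 gained one and 3 changed sign. The number of the genes called in L against WT skin was 2 with at least 10 counts in every library, when only 3 could be tested, and 2 to 4 without a library. In L against NL skin it was 6 with DESeq2 and 1 to 5 without a library, where 1 NL library was left in the lowest. For UVB in WT nodes it was 0 with *Xist* as a covariate and 0 to 1 without a library, for UVB in *Ifnk* TG nodes 0 to 1, and for UVB averaged over genotype 0 with no filter and 0 to 1 without a library. The sign changed without a library for *Ifng* in *Ifnk* TG against WT nodes without UVB (log2 fold change -0.018 to 0.64), for *Ifng* in NL against WT skin (-4.75 to 1.63) and for *Il18r1* in L against WT skin (-0.45 to 0.075), and none of these was called. The cause of the other changes was not tested. No paired analysis was possible because libraries are numbered separately in each tissue and no number is shared between groups.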
